A study of Mus musculus with 18 samples.

Results

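The 47 genes described here act in mitosis, and they were taken by symbol from the table of raw read counts. All 47 were among its 23337 genes, and all 47 passed the filter on low counts that left 14892 genes for testing. RNA was measured by polyA sequencing in mouse embryonic stem cells of the GLI1-FTA line (A2Lox.cre background), a line in which doxycycline induces the Hedgehog transcription factor GLI1, during differentiation toward cardiomyocytes. The untreated controls comprised 4 libraries from D5, 3 from D6, 2 from D8 and 2 from D12. Cells with GLI1 overexpression (OE) had 500 ng/ml doxycycline for 24 hours between D5 and D6, then a wash, and gave 3 libraries from D6, 2 from D8 and 2 from D12. The labels call the D5 and D6 cells cardiac progenitors and the D8 and D12 cells cardiomyocytes. Every group carries the same inducible line, so the comparisons describe 1 line, and no group had doxycycline without the inducible gene. The labels do not say whether replicates came from separate cultures. The p-values therefore rest on the spread among these libraries, and that spread may be technical.

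Mitosis is driven by the kinase Cdk1 with cyclins A and B, held in check by the spindle checkpoint until chromosomes are attached, and ended when the anaphase-promoting complex destroys securin and cyclin B. Most of its genes are transcribed in a wave late in the cell cycle, under the transcription factors B-Myb (Mybl2) and FoxM1 and the MuvB complex, which binds the cell cycle genes homology region (CHR). Cardiac muscle cells are known to leave the cell cycle as they mature. Bulk RNA cannot tell fewer dividing cells from less mitotic RNA per dividing cell.

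Total counts were 18470785 to 26184339 per library. Gli1 was at 785 to 1051 CPM (counts scaled to the library's effective total) in the D6 GLI1 OE libraries and at 6.84 to 21.4 in the D6 controls, and it was at 0.925 to 1.45 in GLI1 OE cells at D8. The 12 cardiomyocyte markers summed to 1453 to 4794 CPM in D5 controls, 4178 to 10469 at D6, 6710 and 16559 at D8, and 5901 and 13787 at D12, so the progenitor-labelled and the cardiomyocyte-labelled libraries both held this RNA. The 8 smooth muscle and fibroblast markers summed to 3514 and 6012 CPM in D8 controls and to 13718 and 14811 CPM in D12 controls. Against D6 controls this list was split. Col3a1 was at 151 to 550 CPM at D6 and at 8637 and 7309 CPM at D12. Col1a1 was at 160 to 530 CPM and then at 3258 and 3919 CPM. Acta2 was lower at D12, at 2723 to 4477 CPM and then 1177 and 2614 CPM. Tagln was likewise lower, at 857 to 1572 CPM and then 311 and 611 CPM. The pluripotency markers summed to 31.2 to 85.4 CPM over all groups. Among them Nanog was at most 0.703 CPM and Pou5f1 at most 4.39 CPM, while Sox2 reached 27.2 CPM, Klf4 17.7 CPM and Tdgf1 65.0 CPM.

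The D5 libraries stood apart from the 14 later ones in the counts of genes with near-identical copies. Gapdh, a glycolytic enzyme with many processed pseudogenes, was at 1430 to 1475 CPM in the 4 D5 libraries and at 0.657 to 4.87 CPM in the others. Of 78 ribosomal protein genes tested, 47 were lower at D6 than at D5 by more than 2 log2 units, against 1.67% of all genes tested and 0 of the 47 mitosis genes. Of the 50-base windows of GENCODE transcripts, 25.1% for Gapdh, 23.4% for Ccnb1 and a median of 1.10% over the mitosis genes also occur in a transcript of another gene. The Ccnb1 windows are shared foremost with its pseudogene Ccnb1-ps. Over 10% of windows were shared in 9 members, among them Kif20a (25.2%, with Cdc23) and Mybl2 (19.3%). A difference in counting between D5 and the later days cannot be told apart from a difference in biology for such genes, so the course from D6 leads below, and the comparison of D12 with D6 was chosen after the data were seen. The D5 libraries also fell into pairs: all 47 mitosis genes were lower in libraries 1 and 2 than in libraries 3 and 4, by a median of 0.74 log2, as were 30.3% of all genes tested. Libraries 1 and 2 were the most alike of any replicates (chi-square per gene 5.97, next lowest 12.3) but differed by more than sampling noise and were kept as 2 libraries.

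Promoter sequence is shown here because the members moved together over the days and because mitotic promoters are known for 2 short elements, the CHR and the CCAAT box. Of the 47 genes, 38 had an entry in the RefSeq promoter table (GRCm38.p6), which spans 250 bases before to 50 bases after the start. On either strand, TTTGAA or TTCGAA, the only CHR forms searched, occurred in 29 of the 38 promoters (76.3%), against 21.7% of the 27025 genes in the table. CCAAT occurred in 29 of 38 (76.3%) against 41.1%, and both elements in 26 of 38 (68.4%) against 9.65%. In promoters of 29 DNA replication genes, which act earlier in the cycle, a CHR form occurred in 6 (20.7%) and CCAAT in 18 (62.1%). The E2F-type motifs TTTGGCGC or TTTCCCGC occurred in 2 of the 38 mitosis promoters (5.26%) and in 10 of the 29 replication promoters (34.5%), against 1.80% of all. The GLI-type motif TGGGTGGTC occurred in 1 of the 38 (2.63%) and in 0.289% of all. These matches are a description of the letters and not of binding. Only the exact letters given were searched, so a promoter without a match may hold another form of the same element.

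The 150 bases before the start are printed for 8 members, 5′ to 3′ on the gene's strand, with CHR and CCAAT matches on either strand in capitals (a CCAAT on the other strand reads ATTGG). Cdk1, Bub1b and Hmmr stand for mitotic entry, checkpoint and spindle genes, Cenpe for promoters without a CHR match, and the cyclin B pair, Mad2l1 and Mybl2 were chosen after their values were seen. They lie at chr10:69352913-69353062 (minus strand) for Cdk1, chr2:118598061-118598210 (plus) for Bub1b, chr11:40733438-40733587 (minus) for Hmmr, chr3:135212413-135212562 (plus) for Cenpe, chr13:100786487-100786636 (minus) for Ccnb1, chr9:70421555-70421704 (minus) for Ccnb2, chr6:66535071-66535220 (plus) for Mad2l1 and chr2:163054485-163054634 (plus) for Mybl2.
Cdk1: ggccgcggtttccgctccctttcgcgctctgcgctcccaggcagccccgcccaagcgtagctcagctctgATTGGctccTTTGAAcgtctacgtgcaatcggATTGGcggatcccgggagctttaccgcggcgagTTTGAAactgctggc
Bub1b: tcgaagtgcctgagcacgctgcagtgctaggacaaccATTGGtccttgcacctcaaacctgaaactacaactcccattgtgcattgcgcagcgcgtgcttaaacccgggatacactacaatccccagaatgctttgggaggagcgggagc
Hmmr: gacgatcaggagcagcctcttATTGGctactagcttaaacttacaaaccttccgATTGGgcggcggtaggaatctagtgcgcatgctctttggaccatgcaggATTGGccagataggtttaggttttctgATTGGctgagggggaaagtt
Cenpe: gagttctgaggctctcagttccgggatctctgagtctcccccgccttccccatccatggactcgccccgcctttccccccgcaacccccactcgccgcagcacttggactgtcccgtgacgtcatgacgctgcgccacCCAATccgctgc
Ccnb1: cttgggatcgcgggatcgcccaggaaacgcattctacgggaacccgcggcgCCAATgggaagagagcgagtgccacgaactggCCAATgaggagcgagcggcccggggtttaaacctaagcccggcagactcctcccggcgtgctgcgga
Ccnb2: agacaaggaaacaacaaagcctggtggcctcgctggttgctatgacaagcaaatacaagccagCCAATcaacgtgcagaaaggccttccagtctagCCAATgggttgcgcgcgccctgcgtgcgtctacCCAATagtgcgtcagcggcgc
Mad2l1: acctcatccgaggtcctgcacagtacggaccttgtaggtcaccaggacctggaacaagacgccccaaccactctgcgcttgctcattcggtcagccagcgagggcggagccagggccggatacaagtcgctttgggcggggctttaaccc
Mybl2: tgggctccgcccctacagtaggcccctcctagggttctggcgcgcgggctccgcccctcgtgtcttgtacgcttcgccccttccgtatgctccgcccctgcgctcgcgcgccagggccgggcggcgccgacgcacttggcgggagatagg
Cdk1 held a CHR 71 and 15 bases before its start, with CCAAT at 80 and 48 bases. Ccnb1 and Ccnb2, the paralogs for cyclin B, both held repeated CCAAT boxes here, at 99 and 67 bases in Ccnb1 and at 87, 54 and 21 bases in Ccnb2. The CHR matches of Ccnb2 lay outside the printed stretch, at 167 bases before the start and 4 after it, and Ccnb1 held none in the whole window. The CHR matches of Bub1b, 188 bases before and 40 after the start, and of Hmmr, 8 after it, also lay outside the printed stretch. In Mad2l1 and Mybl2 no match of either element stood in the window. All distances and windows are set by the RefSeq start, and the GENCODE gene starts 169 bases downstream of it in Mad2l1, 52 downstream in Mybl2, 84 upstream in Ccnb1 and at most 26 away in the other 5. The other promoters without a CHR match were those of Birc5, Nek2, Nuf2, Ncaph and Pttg1. Of the 5 members with a promoter entry and the most negative change in controls from D5 to D12 (Mybl2, Ccnb1, Mad2l1, Bub1 and Nuf2), 4 had no CHR match, while the median change was -1.36 log2 for the 29 members with a match and -1.33 log2 for the 9 without. For Mybl2 and Ccnb1, which share windows with other genes as given above, the change from D5 may depend on counting.

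In untreated cells, 45 of the 47 mitosis genes fell between D6 and D12 (edgeR quasi-likelihood test, adjusted p below 0.05 over all genes tested), and 30.5% of all genes tested were called lower. None was called higher by edgeR (29.8% of all genes tested were), at an unadjusted p below 0.05 (31.9%), by DESeq2 (24%) or by limma-voom (30%). The median change was -1.32 log2, which left 0.400 of the D6 level, beside -0.03 log2 over all genes tested. The D12 and D6 values did not overlap for 46 members, all lower at D12, as for 38.5% of all genes tested. In GLI1 OE cells 43 of 47 fell over the same interval (30.2% of all genes tested), with a median of -1.26 log2, and these 43 were among the 45 of the controls (25.3% of all genes tested were called lower in both). In controls the median by role ran from -1.03 log2 for sister separation to -2.06 log2 for the transcription factors and Ki-67. The smooth muscle and fibroblast markers given above also differed between D12 and D6, in both directions, and their part in these falls was not tested. Without D12 control library 19 the control count was 33, and without D12 GLI1 OE library 10 the GLI1 OE count was 30.

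**Figure D1:**
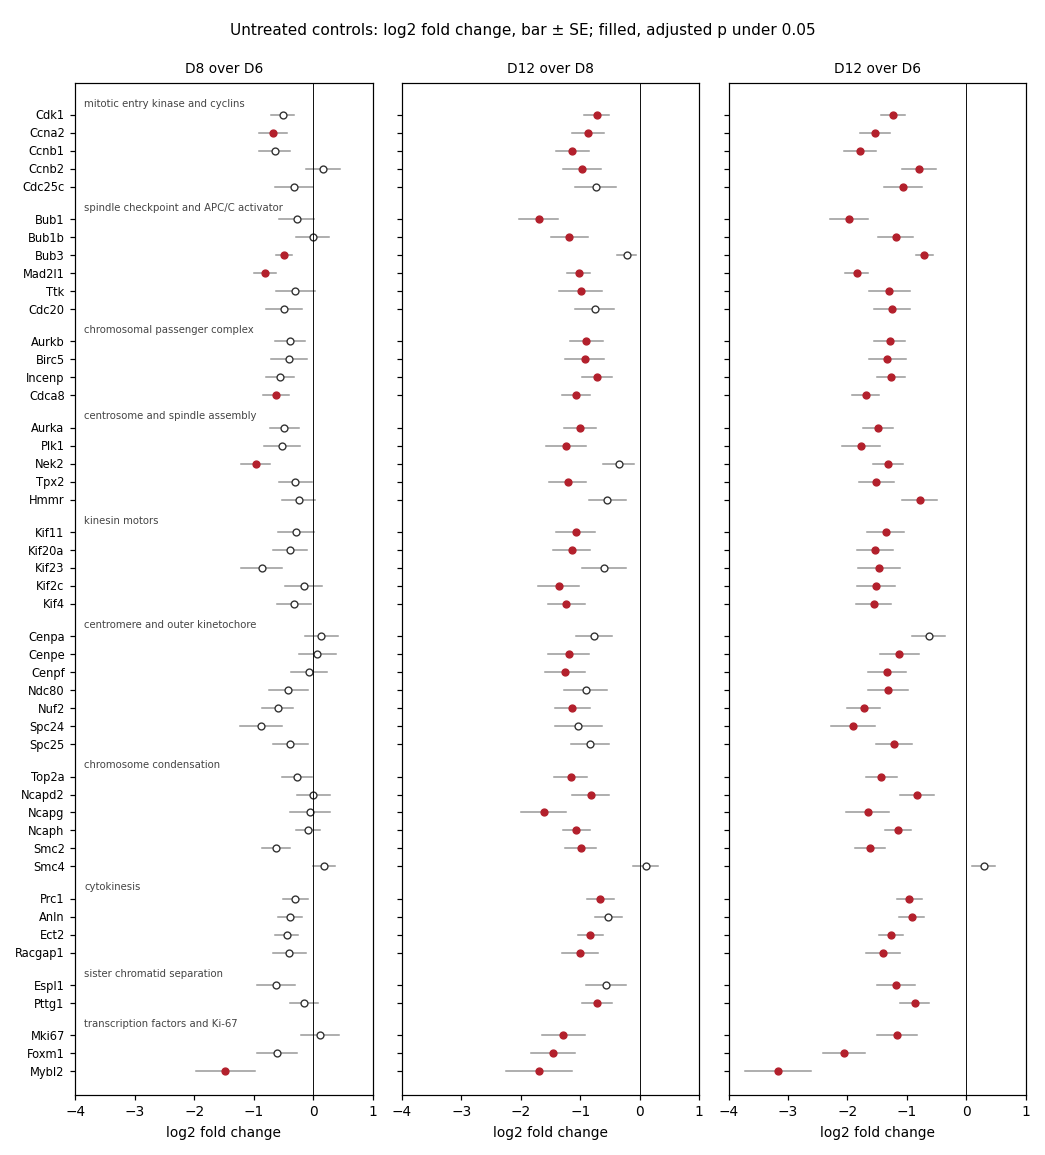
Log2 fold change of each mitosis gene in untreated controls from D6 to D8, D8 to D12 and D6 to D12, grouped by role; points are estimates, bars are ± 1 SE, and filled points have an adjusted p below 0.05. From D6 to D12, 45 of the 47 points are filled, and Smc4 alone lies above 0.

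The kinase and cyclins of mitotic entry were all called lower from D6 to D12 in controls (5 of 5). Ccna2, cyclin A2, was at 297, 307 and 341 CPM in D6 control libraries 3, 11 and 15, at 200.1 and 195 CPM in D8 libraries 13 and 17 and at 130.0 and 86.3 CPM in D12 libraries 9 and 19, a change of -1.54 log2 (SE 0.25, adjusted p = 0.000136). The order of libraries is the same below. Ccna2 was lower at each later day with no overlap between days. Cdk1 itself changed by a smaller amount, -1.24 log2 (SE 0.20, adjusted p = 0.000140).

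The cyclin B pair took different courses. Ccnb1 was at 63.6, 60.7 and 83.1 CPM at D6, 45.0 and 43.2 CPM at D8 and 23.1 and 17.1 CPM at D12, lower at each later day with no overlap. Ccnb2 was at 76.0, 58.2 and 85.7 CPM at D6, 79.4 and 85.9 CPM at D8 and 49.8 and 34.6 CPM at D12, so its D8 values lay among or above those of D6 and only D12 was apart. From D6 to D12 Ccnb1 changed by -1.78 log2 (SE 0.27, adjusted p = 6.61e-05) and Ccnb2 by -0.80 log2 (SE 0.29, adjusted p = 0.0303), and the difference between the 2 genes was not tested. The Ccnb2 call was lost without D6 control library 3, D6 control library 15 or D12 control library 19 (adjusted p of 0.224 at most). Cdc25c, the phosphatase that activates Cdk1, changed by -1.06 log2 (SE 0.32, adjusted p = 0.0112).

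**Figure D2:**
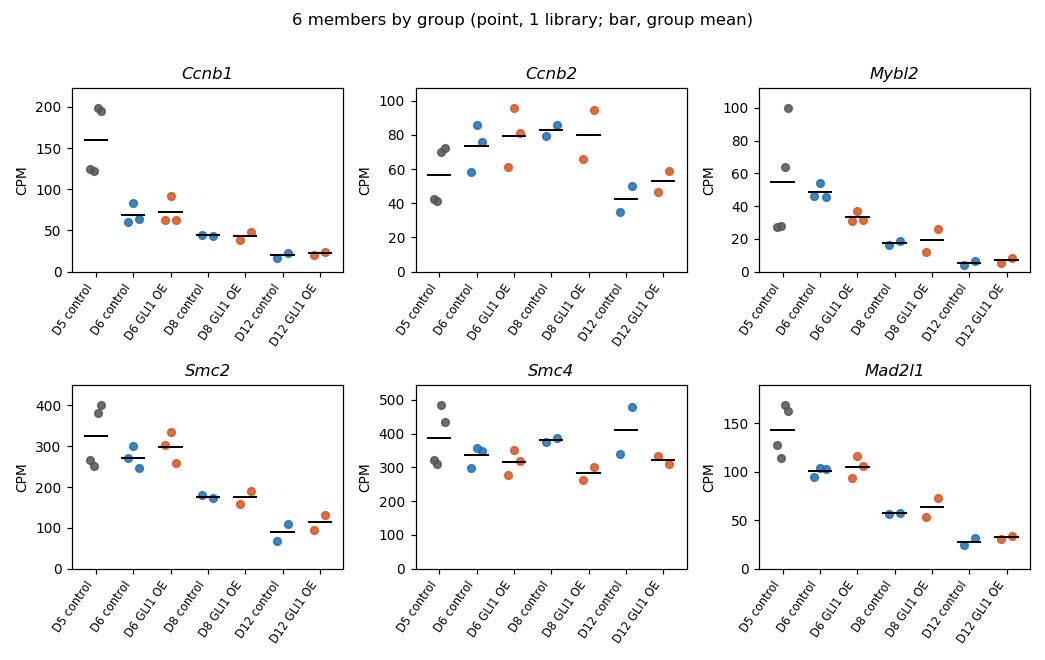
CPM of 6 members in the 7 groups on linear axes from 0; each point is a library and each bar a group mean, with controls in grey (D5) or blue and GLI1 OE in orange. Ccnb1, Mybl2, Smc2 and Mad2l1 are lower at each later day from D6, whereas Ccnb2 is lower only at D12 and Smc4 shows no such fall.

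All 6 spindle checkpoint and APC/C activator genes were called lower from D6 to D12. Mad2l1, the checkpoint inhibitor of Cdc20, had the smallest p of the 47 and was at 103, 94.9 and 104 CPM at D6, 56.7 and 57.6 CPM at D8 and 32.0 and 24.0 CPM at D12. Its change was -1.84 log2 (SE 0.19, adjusted p = 2.70e-06), and it was called lower in every interval tested in controls and in GLI1 OE cells. Bub1, a checkpoint kinase at the kinetochore, was at 163, 143 and 171 CPM at D6, 128 and 135 CPM at D8 and 51.2 and 29.6 CPM at D12. Its fall lay mostly after D8, with -1.70 log2 (SE 0.33, adjusted p = 0.00148). Bub3, which carries Bub1 and Bub1b to kinetochores, was the least changed of the 6, from 149.8, 148 and 175 CPM at D6 to 113 and 111 CPM at D8 and 101 and 91.7 CPM at D12, a change from D6 of -0.71 log2 (SE 0.14, adjusted p = 0.000684). Its values fell by D8 and were only slightly lower at D12. Bub1b, Ttk and Cdc20 changed by -1.19, -1.29 and -1.25 log2. The Ttk call was lost without D12 control library 19 (adjusted p = 0.0726).

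The chromosomal passenger complex, which corrects wrong attachments and acts in cytokinesis, had all 4 of its genes called lower. Incenp, its scaffold, was at 170.5, 154 and 195 CPM at D6, 116 and 119 CPM at D8 and 83.2 and 60.6 CPM at D12. Cdca8 (borealin) was at 132, 128 and 150.1, then 85.7 and 92.4, then 49.2 and 35.5 CPM. In both genes each day lay below the day before. The changes from D6 to D12 ranged from -1.27 log2 in Incenp to -1.69 log2 in Cdca8, with the kinase Aurkb at -1.29 and survivin (Birc5) at -1.33.

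All 5 centrosome and spindle assembly genes were called lower. Nek2, a kinase of centrosome separation, was at 63.2, 68.4 and 80.5 CPM at D6 and already at 37.5 and 34.9 CPM at D8, then at 33.7 and 23.0 CPM at D12. Its change was -0.97 log2 (SE 0.24, adjusted p = 0.00786) from D6 to D8 and -0.35 log2 (SE 0.26, adjusted p = 0.313) from D8 to D12, so its fall passed the test before D8 and not after. Tpx2, which activates Aurora A at the spindle, showed the other order, from 277, 221 and 294 CPM at D6 to 207 and 222 CPM at D8 and 113 and 71.5 CPM at D12. Tpx2 changed by -0.30 log2 (SE 0.28, adjusted p = 0.421) and then by -1.21 log2 (SE 0.31, adjusted p = 0.00719). The difference between the intervals was not tested for Nek2 or Tpx2. Plk1 and Aurka fell by D12 to 0.294 and 0.358 of their D6 levels. Hmmr, a spindle protein, changed by -0.79 log2 (SE 0.29, adjusted p = 0.0287), a call lost without D6 control library 3, D6 control library 15 or D12 control library 19, and with the replicate block.

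The kinesin motors were all called lower (5 of 5), with changes from D6 to D12 between -1.36 log2 in Kif11, which separates spindle poles, and -1.56 log2 in Kif4, a chromosome-bound motor. Kif20a, a motor of the central spindle, was at 209.5, 182 and 254 CPM at D6, 150.04 and 178 CPM at D8 and 90.3 and 57.8 CPM at D12. Kif4 was at 103, 97.9 and 129.9, 88.6 and 87.8 and 49.2 and 25.7 CPM. In both genes the D12 libraries lay below all D8 libraries. Exons of Kif20a overlap those of Cdc23 on the opposite strand, and those of Kif4 overlap Pdzd11 likewise. The sources used here do not say whether counting used strand, so these counts are uncertain, as are those of Ccna2 (Exosc9), Cdc25c (Gm3550), Cdc20 (Elovl1), Cdca8 (9930104L06Rik), Plk1 (Gm44985), Nek2 (Gm38037), Ncapg (Lcorl) and Prc1 (Rccd1). Exons of Foxm1, Top2a and Ncapd2 overlap other genes on the same strand, which strand use would not separate.

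Of 7 centromere and outer kinetochore genes, 6 were called lower from D6 to D12. Nuf2, a subunit of the Ndc80 complex that holds microtubules, was at 61.9, 55.4 and 68.5 CPM at D6, 41.0 and 40.9 CPM at D8 and 22.5 and 14.9 CPM at D12, a change of -1.73 log2 (SE 0.27, adjusted p = 0.000107). The other subunits of that complex, Ndc80, Spc24 and Spc25, changed by -1.32, -1.91 and -1.22 log2, each past the test. Cenpf was at 194, 194 and 226 CPM at D6 and 203 and 186 CPM at D8, which overlap, and at 108 and 54.5 CPM at D12. The kinesin Cenpe changed by -1.13 log2 (SE 0.32, adjusted p = 0.00831), a call lost without D12 control library 19 (adjusted p = 0.106). Cenpa, the histone H3 variant that marks the centromere, was the member not called: it was at 87.2, 70.2 and 118 CPM at D6, 102 and 100.1 CPM at D8 and 69.6 and 48.9 CPM at D12, with -0.63 log2 (SE 0.28, adjusted p = 0.0656). Its D12 values lay below those of both earlier days, the nearest gap being from 69.6 to 70.2 CPM.

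The chromosome condensation genes held a split within a complex, with 5 of 6 called lower. Smc2 and Smc4 are the paired ATPases of condensin. Smc2 was at 246, 271 and 300.0 CPM at D6, 181 and 172 CPM at D8 and 110.4 and 66.9 CPM at D12, a change of -1.62 log2 (SE 0.25, adjusted p = 8.67e-05). Smc4 was at 350.0, 299 and 358 CPM at D6, 375 and 388 CPM at D8 and 479 and 341 CPM at D12, a change of 0.29 log2 (SE 0.19, adjusted p = 0.200), with D12 values on both sides of those of D8. The 95% interval of the Smc4 change ran from -0.12 to 0.70 log2, and it was the only member with an estimate above 0. The condensin I subunits Ncapg, Ncaph and Ncapd2 changed by -1.66, -1.15 and -0.83 log2 and were called lower, the last not without D6 control library 15 or D12 control library 19. Top2a, the topoisomerase that untangles sister chromatids, was at 854, 815 and 969.7 CPM at D6, 738 and 721 CPM at D8 and 389.6 and 263 CPM at D12, a change of -1.43 log2 (SE 0.26, adjusted p = 0.000330). The contrast of Smc4 with the other condensin genes was noticed in these data and not tested as a difference between genes.

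All 4 cytokinesis genes were called lower. Ect2, the exchange factor that activates RhoA at the division plane, was at 122, 116 and 126 CPM at D6, 90.5 and 88.1 CPM at D8 and 59.4 and 41.2 CPM at D12, a change of -1.27 log2 (SE 0.20, adjusted p = 9.02e-05). Anln, an actin-binding scaffold of the cleavage furrow, was at 204, 208 and 209, 161 and 156 and 130.3 and 88.8 CPM, a change of -0.92 log2 (SE 0.21, adjusted p = 0.00193). In both, each later day lay below the day before without overlap. Racgap1, the partner of Ect2, changed by -1.41 log2 (SE 0.29, adjusted p = 0.000807).

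Both genes of sister chromatid separation were called lower. Espl1, separase, was at 142, 124 and 139 CPM at D6, 82.5 and 93.1 CPM at D8 and 74.2 and 44.2 CPM at D12, a change of -1.19 log2 (SE 0.32, adjusted p = 0.00574), and the call was lost without D12 control library 19 (adjusted p = 0.0847). Its inhibitor securin (Pttg1) changed by -0.87 log2 (SE 0.24, adjusted p = 0.00596).

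All 3 genes of the last role, the transcription factors and Ki-67, were called lower, and Mybl2 and Foxm1 had the most negative estimates of the 47. Mybl2 was at 45.8, 46.0 and 53.9 CPM at D6, 16.4 and 18.4 CPM at D8 and 6.57 and 4.19 CPM at D12, a change of -3.17 log2 (SE 0.55, adjusted p = 0.000229), which left 0.111 of the D6 level. Foxm1 was at 143, 121 and 140.3 CPM at D6, 85.9 and 91.1 CPM at D8 and 42.4 and 22.3 CPM at D12, a change of -2.06 log2 (SE 0.36, adjusted p = 0.000220). Neither gene's days overlapped, each lying below the day before. Mki67, the proliferation marker Ki-67, was at 471, 403 and 517 CPM at D6, 530.3 and 475 CPM at D8 and 277 and 136 CPM at D12. Its D8 values were not below those of D6, and only D12 was lower, with -1.17 log2 (SE 0.34, adjusted p = 0.00846). Without D12 control library 19 the adjusted p was 0.115.

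By interval, 6 members were called lower in controls from D6 to D8, a share below the 17.5% of all genes tested: Mybl2, Nek2, Mad2l1, Ccna2, Cdca8 and Bub3. The median was -0.39 log2. The count was 1 to 3 without any of D6 control libraries 3, 11 and 15 and D8 control libraries 13 and 17, 20 when only these 5 libraries were fitted, 13 without the D5 libraries, and 3 with the replicate block, which sets libraries of adjacent numbers as pairs. From D8 to D12, 34 were called lower against 19.4% of all genes tested, with a median of -0.99 log2. That count fell to 3 without D12 control library 19, to 16 without D8 control library 17 and to 21 without D8 control library 13, while the median without library 19 was -0.74 log2. The comparisons share the D8 controls, and the difference between the intervals was not tested.

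In GLI1 OE cells 13 members were called lower from D6 to D8 (19.8% of all genes tested) and 18 from D8 to D12 (17.5%), with medians of -0.54 and -0.71 log2. The first count was 0 without D8 GLI1 OE library 14, 4 without D6 GLI1 OE library 16 and 6 without D6 GLI1 OE library 4. The second was 1 without D8 GLI1 OE library 18, 1 without D12 GLI1 OE library 10, 10 without D12 GLI1 OE library 20, 11 with the replicate block and 0 when these 4 libraries were fitted alone. All 18 members called from D8 to D12 were also called in controls (14.5% of all genes tested were lower in both), and 5 members were called in both conditions from D6 to D8 (13.7%). Over D6 to D12 the 4 members not called in GLI1 OE cells were Cenpa, Smc4, Ccnb2 and Hmmr. Their values were -0.61, 0.03, -0.59 and -0.62 log2.

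**Figure D3:**
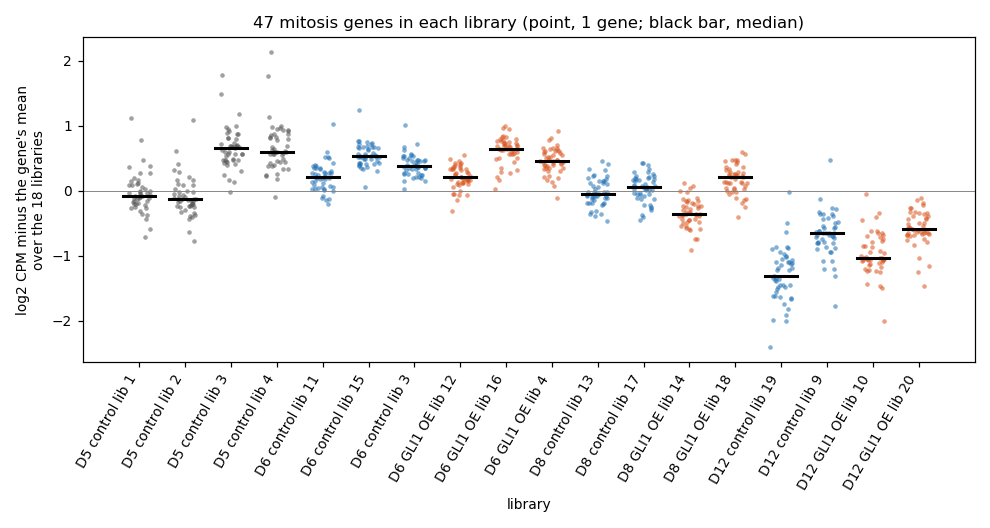
Log2 CPM of the 47 mitosis genes in each of the 18 libraries, as the difference from each gene's mean over all libraries; points are genes and bars are medians. The medians lie between 0.21 and 0.65 in the 6 D6 libraries and between -1.31 and -0.59 in the 4 D12 libraries, with D5 libraries 1 and 2 below the other D5 libraries.

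From D5 to D6 the mitosis genes showed no common direction in controls: 2 were called lower, against 9.99% of all genes tested. None was called higher by edgeR (8.39% of all genes) or limma-voom (8.29%), and 1 was by DESeq2 (8.44%) or at an unadjusted p below 0.05 (15.4%). Ccnb1 was at 122 to 199 CPM at D5 and 63.6, 60.7 and 83.1 CPM at D6, a change of -1.21 log2 (SE 0.21, adjusted p = 0.00127). Mad2l1 was at 114 to 169 CPM at D5 and 103, 94.9 and 104 CPM at D6, a change of -0.51 log2 (SE 0.15, adjusted p = 0.0302). The shared windows of Ccnb1 given above move with this result, and for Mad2l1 they were 0.978%. The count was 1 without any of D5 libraries 3 and 4 and D6 control libraries 3, 11 and 15. The median of the 47 was 0.09 log2 with all D5 libraries, -0.24 with D5 libraries 3 and 4 only (4 called lower) and 0.49 with D5 libraries 1 and 2 only (1 called lower), so its sign depended on which D5 libraries were used.

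Over the whole course from D5 to D12, 43 members were called lower in controls (34.3% of all genes tested), with a median of -1.33 log2. The 4 not called were Cenpa (-0.01 log2), Smc4 (0.08), Ccnb2 (-0.42) and Ncapd2 (-0.62). The largest falls were those of Mybl2 (-3.34 log2), Ccnb1 (-3.00), Mad2l1 (-2.36) and Bub1 (-2.18), and 9 members were called over the whole course but in none of its 3 intervals (6.72% of all genes tested). For Mybl2 and Ccnb1, which share windows with other genes, the fall from D5 may depend on counting. The median was -1.67 log2 with D5 libraries 3 and 4 only and -0.91 with libraries 1 and 2 only.

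With all 18 libraries in the fit, GLI1 OE called none of the mitosis genes at any day, while Mybl2 was called at D6 in the authors' deposited table and in a fit of D6 alone (values below). By edgeR 0 of 47 were called at D6, when 4.14% of all genes tested were, and 0 at D8 and D12, when 0% of all genes were. At an unadjusted p below 0.05 the count was 0 of 47 at each day (15.8%, 5.95% and 5.64% of all genes tested at D6, D8 and D12). DESeq2 called 0 of 47 at each day (5.34%, 0.209% and 0.073% of all genes), and so did limma-voom (4.19%, 0% and 0.00672%). The medians of the 47 were 0.07 log2 at D6, -0.05 at D8 and 0.20 at D12, the last 0.51 without D12 control library 9. The 95% intervals lay within 1 log2 unit of 0 for 45 members at D6, 46 at D8 and 37 at D12, so a change of 2-fold or more lay outside the interval for those members and inside it for the rest. The median distance from estimate to interval end was 0.53, 0.65 and 0.66 log2, so in this unpaired fit smaller effects were mostly not detectable. The difference between the effects at D8 and D6 was called for 0 of 47 by edgeR (0.631% of all genes tested), DESeq2 (1.21%) and limma-voom (0.88%), and at an unadjusted p below 0.05 (7.02%). The difference between D12 and D8 was called for 0 of 47 by all 3 tools (0% of all genes) and at an unadjusted p below 0.05 (2.38%). At D6 the cardiomyocyte markers summed to 1246 to 4170 CPM in GLI1 OE libraries, below every control, and their part in the comparison was not tested. Among endoderm markers Foxa2 was at 85.5 to 112 CPM in GLI1 OE and 0.255 to 0.791 CPM in control libraries, while the other 6 measured summed to 10.9 to 19.01 and 7.58 to 13.4 CPM, which overlap. Within that sum Afp, Alb and Ttr were higher in every GLI1 OE than in every control library, at 1.39 CPM or less. Sox17, Epcam and Apoa1 overlapped between the groups.

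**Figure D4:**
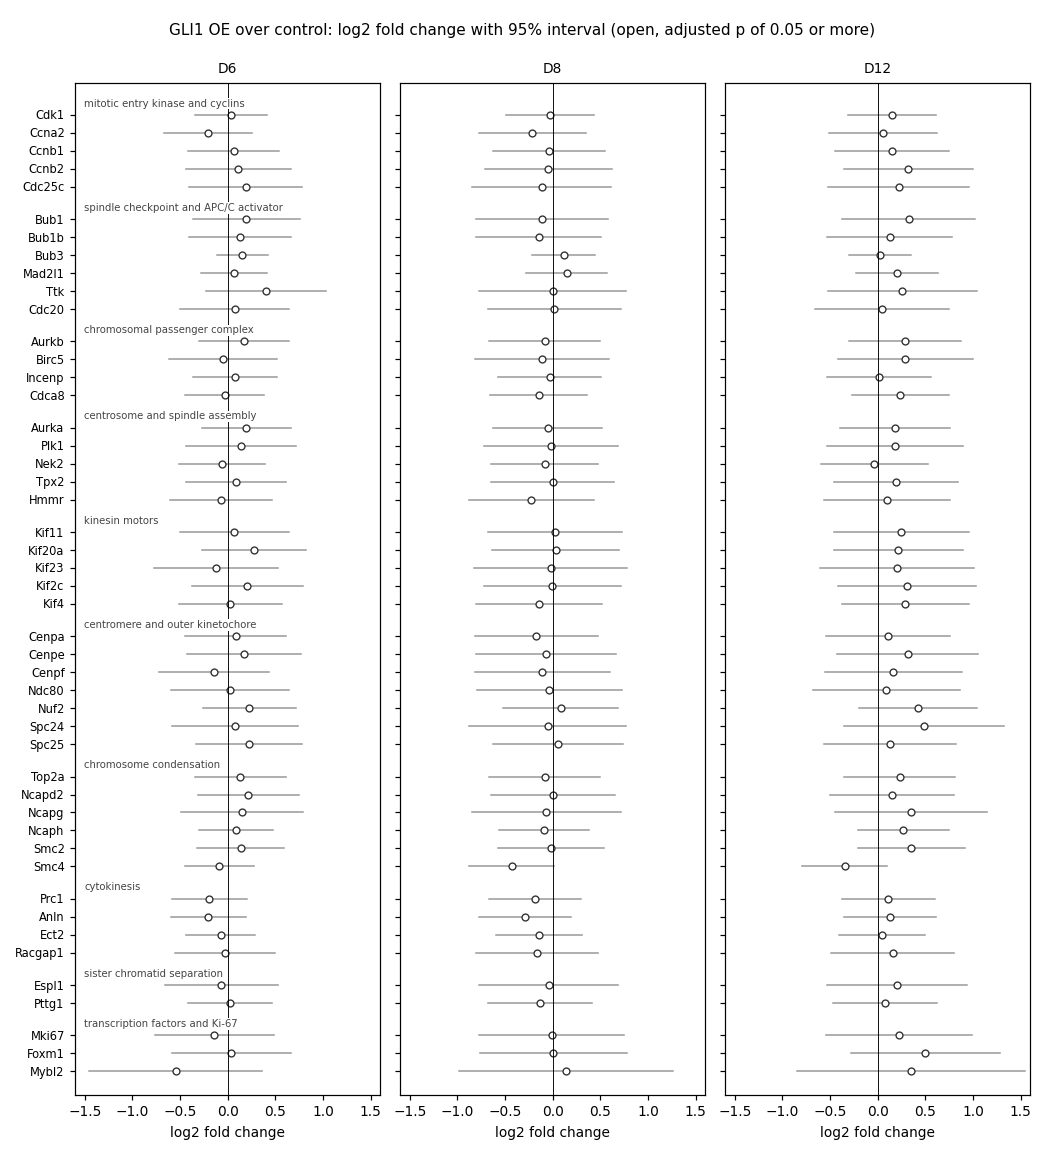
Log2 fold change of GLI1 OE over control at D6, D8 and D12 for each mitosis gene, with 95% intervals; no point passes an adjusted p of 0.05. The intervals cross 0 for all 47 genes at each day, and the widest belong to Mybl2.

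At D6 the members of smallest p were Ttk, Mybl2 and Bub3. Ttk, the checkpoint kinase Mps1, was at 81.7, 53.4 and 72.5 CPM in the controls and 101, 70.3 and 102 CPM in GLI1 OE libraries 4, 12 and 16. The groups overlapped, but each GLI1 OE value lay above that of the control with the adjacent number. The change without pairing was 0.40 log2 (SE 0.29, adjusted p = 0.594), and the fit with the replicate block called none of the 47. Mybl2 was at 45.8, 46.0 and 53.9 CPM in controls and 31.3, 31.2 and 37.2 CPM in GLI1 OE libraries, so that every GLI1 OE value lay below every control value, as for 3 of the 47 and 13.8% of all genes tested. Its change was -0.55 log2 (SE 0.42, adjusted p = 0.618). In the authors' deposited table for D6, Mybl2 had a log2 fold change of -0.54 with an adjusted p of 0.000599 and was the only one of the 47 with an adjusted p below 0.05. At an unadjusted p below 0.05 that table held 3, Mybl2, Anln and Ttk. In an edgeR fit of the 6 D6 libraries alone Mybl2 was also the only member called (adjusted p = 0.0231). In a fit of the 14 libraries from D6 to D12 its adjusted p was 0.275. The samples in the authors' fit are not stated. Bub3 was at 149.8, 148 and 175 CPM in controls and 168, 163 and 195 CPM in GLI1 OE libraries. The groups overlapped, and again each GLI1 OE value lay above that of the control with the adjacent number. The change without pairing was 0.15 log2 (SE 0.12, adjusted p = 0.641).

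At D8 the smallest p belonged to Smc4, at 375 and 388 CPM in controls and 264 and 302 CPM in GLI1 OE libraries 14 and 18, a change of -0.43 log2 (SE 0.21, adjusted p = 0.831). Smc4 also had the smallest p at D12, with 479 and 341 CPM in controls and 335 and 311 CPM in GLI1 OE libraries 10 and 20, a change of -0.35 log2 (SE 0.21, adjusted p = 0.922). On both days both GLI1 OE values were below both control values (15.2% and 16.4% of all genes tested), and neither difference passed the test (unadjusted p of 0.0579 and 0.12). Anln and Ccna2 followed at D8 with -0.29 and -0.21 log2, and Nuf2 and Foxm1 at D12 with 0.42 and 0.50 log2, all with adjusted p above 0.9. In the authors' deposited tables for D8 and D12, 0 of the 47 had an adjusted p below 0.05 or an unadjusted p below 0.05.

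The libraries of a group differed in the whole set at once. In D8 GLI1 OE cells all 47 genes were higher in library 18 than in library 14, by a median of 0.49 log2, and in D12 controls all 47 were higher in library 9 than in library 19, by 0.59 log2. In D12 GLI1 OE cells 46 were higher in library 20 than in library 10, by 0.40 log2. In 6 of the 7 groups the library with the highest median for cardiomyocyte markers had the lowest median for the mitosis genes, the exception being D5, where libraries 1 and 2 were close on both. The summed cardiomyocyte markers were 13702 CPM in D8 GLI1 OE library 14 and 1247 CPM in library 18, and 13787 CPM in D12 control library 19 and 5901 CPM in library 9. The D8 GLI1 OE libraries also differed in Hedgehog target genes. Ptch1 was at 39.7 CPM in library 14 and 105 CPM in library 18, beside 33.4 and 29.6 CPM in D8 controls. Foxf2 was at 0.509 CPM in library 14 and 20.1 CPM in library 18. In D12 GLI1 OE libraries 10 and 20 Foxf2 was at 0.170 and 6.79 CPM, but Ptch1 was at 41.5 and 44.6 CPM. The part of these markers and targets in the mitosis gene results was not tested.

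**Figure D5:**
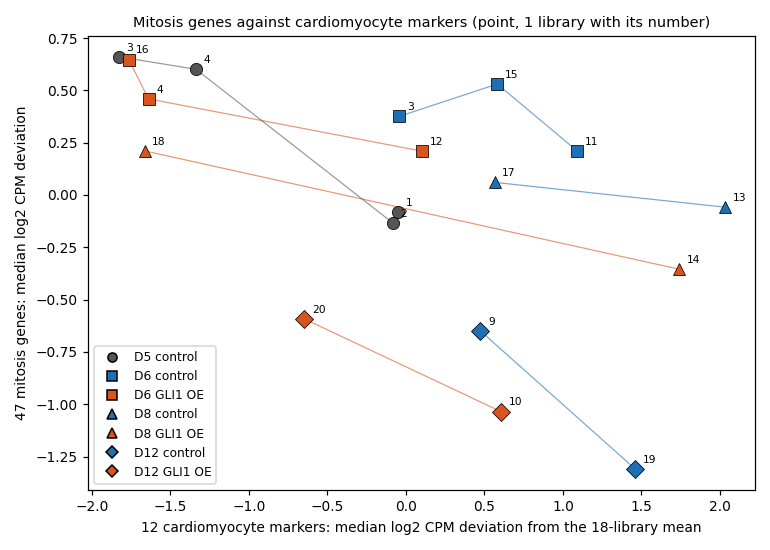
Median log2 CPM deviation of the 47 mitosis genes against that of 12 cardiomyocyte markers, 1 point per library with its library number; lines join libraries of a group, colour is the condition and shape the day. In D8 GLI1 OE cells library 14 lies at 1.74 for the markers and -0.35 for the mitosis genes, and library 18 at -1.66 and 0.21.

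At D8 and D12 the sign of the GLI1 OE difference changed between pairs of libraries with adjacent numbers. At D8, GLI1 OE library 14 was above control library 13 in 0 of 47 genes and GLI1 OE library 18 was above control library 17 in 39. At D12, GLI1 OE library 20 was above control library 19 in 46 genes and GLI1 OE library 10 was above control library 9 in 0. These D12 pairs correlated at -0.231 over all genes, so the change of sign at D12 rests on a pairing that the libraries did not bear out. With the D12 pairs crossed, a choice made after the data were seen, the median deviations were -1.04 in GLI1 OE library 10 and -1.31 in control library 19. They were -0.59 in GLI1 OE library 20 and -0.65 in control library 9, so GLI1 OE was the higher in both crossed pairs. The crossing sets the lower library of each group together and the higher ones together, so nothing is concluded from this shared sign. At D6 the 3 such pairs gave 27, 31 and 32 genes higher in GLI1 OE, with medians of 0.02 to 0.10 log2.

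Other genes of the same processes gave a frame for these values. Of 66 further mitosis genes, 58 were called lower and 1 higher in controls from D6 to D12, with a median of -1.20 log2. Of all genes tested, 30.5% were called lower and 29.8% higher over that interval. Trip13, an ATPase that takes the checkpoint complex apart, had the smallest p, with -3.51 log2 (SE 0.29, adjusted p = 3.92e-07). All 34 DNA replication genes were called lower, with a median of -2.19 log2 against the -1.32 log2 of the 47. From D6 to D8, 22 of the 34 were already called lower, where 6 of the 47 and 17.5% of all genes tested were. Ccne2, cyclin E2, changed by -3.75 log2 (SE 0.18, adjusted p = 2.38e-08) from D6 to D12. The difference between these lists was not tested. Of 20 regulators of the MuvB, E2F and pocket protein families, 13 were called lower and 5 higher from D6 to D12, the latter not above the 29.8% of all genes tested. Rbl2, the pocket protein p130 of quiescent cells, changed by 3.53 log2 (SE 0.22, adjusted p = 6.15e-08), and Tfdp1, the E2F partner DP1, by -2.10 log2 (SE 0.17, adjusted p = 3.77e-07). At D6, D8 and D12 GLI1 OE called 0 of the 66, 0 of the 34 and 0 of the 20 genes by edgeR (4.14%, 0% and 0% of all genes tested). At an unadjusted p below 0.05 the counts were 1, 0 and 1 at D6 (15.8% of all genes tested) and 0 in each list at D8 (5.95%). At D12 they were 4, 2 and 0, near or below the 5.64% of all genes tested. Of 10 Hedgehog target genes 7 were called higher at D6, and that list includes Gli1, the induced gene itself.

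Levels can be compared between genes only per length, and the authors' deposited TPM values at D5, which are scaled by transcript length, allow this for the D5 controls. All 47 genes were above the median of expressed genes, 14.1 TPM, with a median of 91.8 TPM. Top2a was highest at 353 ± 101 TPM (SD, n = 4), followed by Ccna2 at 243 ± 61.7, Smc4 at 209 ± 45.1 and Ccnb1 at 187 ± 47.2. Espl1 at 35.05 ± 11.98 and Cdc25c at 31.7 ± 9.29 TPM were lowest. Neighbours in the order of the 47 were closer than the smaller of their SDs, except for Top2a and Ccna2. These SDs include the split between replicates 1 and 2 and replicates 3 and 4, shared by the genes, and so do not measure how sure the order is. Ccna2 was above Smc4 in every replicate, whereas Ccnb1 was above Mad2l1 in replicates 3 and 4 and below it in replicates 1 and 2. Together the 47 made up 0.379% to 0.392% of the TPM in D5 replicates 1 and 2 and 0.618% to 0.620% in replicates 3 and 4. Ccnb2 was at 80.9 ± 23.8 TPM, below its paralog Ccnb1. As 23.4% of the Ccnb1 windows also occur in other genes, the D5 level of Ccnb1 may depend on counting. The part of counting in this order was not tested.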

How the data were processed

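Per the labels' protocols, polyA RNA was made into TruSeq v2 libraries and read as 50-base single-end reads. The authors deposited raw read counts per gene symbol for the 18 libraries and D5 TPM values (transcripts scaled by length and depth). Their deposited tables of GLI1 OE against control hold log2 fold changes with p-values and adjusted p-values. Of the aligner, the counter, the genome build and the use of strand, each was not given in the sources used here. Count columns carry library numbers rather than the labels' replicate numbers, so they were assigned to groups only.

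Counts were normalised by TMM and tested with edgeR 4.0.16 (R 4.3.3; quasi-likelihood test, 1 coefficient per group, all 18 libraries, genes with a minimum count of 10 in enough libraries), with Benjamini-Hochberg adjustment over all genes tested and a threshold of 0.05. CPM used TMM-scaled library sizes. limma 3.58.1 and DESeq2 1.42.0 were alternatives, and the scripts were tested on simulated data. The members, the gene lists and the tests were chosen with earlier results of these data known. D12 was compared with D6 after the data were seen, because D5 counts of multi-copy genes differ from those of later days. The rule for naming took the member of each role with the highest mean log2 CPM and that with the smallest p from D5 to D12. It also took the 3 members of smallest p in each GLI1 OE comparison and members that go against their role's sign. Library values are given for most of these, mainly in controls or in the comparison that named them. Bub1b, Hmmr, Kif11, Cenpe, Spc24, Ncapd2, Ncaph and Racgap1 met the rule and are given by their changes only. Others named with values were chosen after their values were seen. Adjacent library numbers were taken as pairs in the replicate block, while the main fit, with its GLI1 OE estimates and intervals, was unpaired. Deviations of the D6 pairs from their group means correlated at 0.445 to 0.617 over all genes, each above 0.1, the bound set for pairing. The correlations were 0.491 at D8 and -0.231 at D12. Promoters came from RefSeq (GRCm38.p6), and overlaps and shared windows from GENCODE vM21.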

Additional observations from a re-analysis of the deposited data

How the results depend on the processing

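Beside the values given, 11 other settings and 18 fits that each left out 1 library were tried. The count of members called lower from D6 to D12 stayed at 33 to 46 of 47 in controls and 30 to 46 in GLI1 OE cells, and from D5 to D12 at 31 to 45. The GLI1 OE effect was called for 0 members in all fits but that of the D6 groups alone, which called 1. From D5 to D6 the count was 1 to 2 when libraries were left out in turn, 4 with D5 libraries 3 and 4 only and 1 with D5 libraries 1 and 2 only. From D6 to D8 in controls it was 11 with DESeq2, 20 with the groups of the comparison alone, 13 with the D6 to D12 libraries alone, 3 with the replicate block and 1 to 3 with 1 library left out. From D8 to D12 in controls it was 3 to 35 with 1 library left out, where 16 and 21 were the values without D8 control libraries 17 and 13. In GLI1 OE cells the count from D6 to D8 was 0 to 18 with 1 library left out, with 4 and 6 among these values, and from D8 to D12 it was 0 with the groups alone, 11 with the replicate block and 1 to 21 with 1 library left out, with 10 among these. Blocking for pairs changed no other count by over 1.5 times. With the D12 pairs crossed, a setting chosen after seeing the data, the block called 46 members lower from D6 to D12 in controls, 44 in GLI1 OE cells, 39 and 22 from D8 to D12, and 0 for the GLI1 OE effect at D12. Where 1 library was left in a group it was assumed to vary like the others. For single members, 1841 values kept their direction and side of the threshold, 214 lost the call, 1 gained it and 0 reversed. The largest shift of the median of all genes between scalings was 0.031 log2. The cause of these differences was not tested.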

Other observations

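Pairs of CCAAT boxes 31 to 33 bases apart on 1 strand, a spacing noticed in the cyclin B promoters and then counted, occurred in 7 of 38 mitosis promoters (18.4%): Cdk1, Ccnb1, Ccnb2, Aurka, Nek2, Hmmr and Spc25. The same spacing occurred in 4 of 57 promoters of other mitosis genes (7.02%), 1 of 29 of DNA replication genes (3.45%) and 0.918% of the 27025 genes in the table. These shares describe the sequences and were not tested.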
